A study of Homo sapiens with 8 samples.

Results

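The mRNAs described here encode 10 proteins that place, read or remove N6-methyladenosine (m6A), a methyl mark on adenosines inside mRNA. They are the writers METTL3, METTL14, WTAP and VIRMA, the YTH-domain readers YTHDF1, YTHDF2, YTHDF3, YTHDC1 and YTHDC2, and the eraser ALKBH5. The genes were chosen by name for their role, with earlier results of these data known, and every RefSeq transcript that carried one of these symbols in either of the authors' deposited tables was kept. This gave 22 transcripts of 10 genes, out of 22468 transcripts of 13350 genes with a symbol, and all 22 were protein-coding. The table of RBMS1 knockdown cells (shRBMS1) listed 21 of them and the table of control cells (shControl) listed 20, with 19 in both.

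The m6A mark is laid down in the nucleus by METTL3 and METTL14, which act as a pair in which METTL3 is catalytic, with WTAP and VIRMA as parts of a larger complex that brings the pair to its substrates. Readers of the YTHDF family bind the mark in the cytoplasm and are best known for promoting the decay of marked mRNAs, YTHDC1 binds it in the nucleus and is known for roles in splicing and export, and YTHDC2 is a helicase. ALKBH5 is a demethylase. The letters GGACT, as DNA, are a common form of the sequence in which the mark is placed.

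The cells were SW480, an established human colorectal adenocarcinoma line (the series text calls them breast cancer cells), with a stably expressed shRNA against RBMS1, an RNA-binding protein, or with a control shRNA. The series text gives 2 shRNA clones against RBMS1 and the sample protocols give 1, and the knockdown libraries carry 1 shared label. Cells of both kinds were taken untreated (0 h) or after 9 h with alpha-amanitin at 10 µg/mL, a toxin that blocks RNA polymerase II. Each of the 4 groups (shRBMS1 at 0 h and 9 h, shControl at 0 h and 9 h) had 2 libraries of total RNA depleted of ribosomal RNA.

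Each deposited value compares 9 h with 0 h within 1 cell population, so a value of −1 is a 2-fold lower level at 9 h relative to the rest of the library. The tables give neither the log base nor the direction. Base 2 was taken from Cuffdiff, which the submitters' processing notes name. The direction was taken from short-lived mRNAs: in the authors' deposited tables MYC was at −1.38 in shRBMS1 and −1.44 in shControl cells, and FOS at −1.24 in shRBMS1 and −1.61 in shControl cells. JUN was at −0.81 in shRBMS1 and −1.01 in shControl cells in the authors' deposited tables. Each table gives a single value per transcript, made from all its libraries together. Depth and the spread between libraries are therefore unknown, so whether any value or difference below exceeds that spread was not testable and no p-value is given. In bulk RNA, fewer cells with a transcript and less of it per cell cannot be told apart.

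The members whose values stood farthest from 0 were isoforms of WTAP, YTHDF3 and YTHDC1, and the coding stretches in which the WTAP and YTHDC1 isoforms differ are shown here; isoforms of both genes also differ in their UTRs, and some WTAP isoforms only there. The longer YTHDC1 form, YTHDC1-201, holds a coding exon of 54 nt (chr4:68332794-68332847, minus strand, GRCh38) that YTHDC1-202 skips. It is shown in capitals between its neighbours, and the second line is the junction without it.
YTHDC1-201: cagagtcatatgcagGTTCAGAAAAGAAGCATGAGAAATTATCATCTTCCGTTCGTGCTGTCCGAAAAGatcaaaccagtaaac
YTHDC1-202: cagagtcatatgcagatcaaaccagtaaac
The WTAP forms part at the end of 1 shared coding exon (lower case). The full-length form of 396 codons goes on with an exon of 155 nt (chr6:159753460-159753614, plus strand). A short form of 170 codons splices to another exon and stops (chr6:159748590-159748650), and a shorter one of 151 codons reads on and stops within 4 nt (chr6:159748370-159748373). Capitals mark what follows the shared exon, up to the end of the next exon in the full-length form and to the stop codon in the short ones.
WTAP-202: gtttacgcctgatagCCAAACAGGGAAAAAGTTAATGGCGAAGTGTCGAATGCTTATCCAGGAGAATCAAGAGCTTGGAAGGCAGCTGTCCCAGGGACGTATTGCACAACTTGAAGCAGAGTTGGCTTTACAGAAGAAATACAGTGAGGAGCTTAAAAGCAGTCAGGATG
WTAP-205: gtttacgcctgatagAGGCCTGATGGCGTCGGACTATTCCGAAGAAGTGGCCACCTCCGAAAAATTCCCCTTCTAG
WTAP-201: gtttacgcctgatagGTAA
Transcript names and sequences are those of GENCODE release 29, matched to the deposited RefSeq accessions.

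Among the writers, METTL14 was lower at 9 h in both cell populations while METTL3, its catalytic partner, stayed near the middle of all transcripts. METTL14 (chr4:118685392-118715430), listed with 1 transcript, was at −1.20 in shRBMS1 cells and −1.24 in shControl cells in the authors' deposited tables. This put it below all but 10.01% of transcripts in shRBMS1 cells and all but 9.79% in shControl cells. It was the only 1 of the 5 members with a single listed transcript that lay at −1 or below in either population. METTL3 (chr14:21498138-21511340) was at −0.20 in shRBMS1 and 0.08 in shControl cells in the authors' deposited tables. Between the populations METTL14 hardly differed, and METTL3 was on either side of 0.

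WTAP (chr6:159726693-159756319), the regulatory subunit that binds the METTL3 and METTL14 pair, had 6 listed transcripts, and they ran from well below to above 0. The full-length forms were WTAP-202, at −0.40 in shRBMS1 and −0.72 in shControl cells, and WTAP-206, at 0.71 in shRBMS1 and 0.84 in shControl cells, in the authors' deposited tables. The forms of 170 codons were WTAP-205, at −2.19 in shRBMS1 and −3.53 in shControl cells, and WTAP-207, at −0.13 in shRBMS1 and −0.98 in shControl cells, in the authors' deposited tables. Both accessions with 151 codons match the GENCODE transcript WTAP-201. One of them (NM_152858) was at −2.27 in shRBMS1 and −2.27 in shControl cells and the other (NM_152857) at −0.56 in shRBMS1 and 0.06 in shControl cells in the authors' deposited tables. The lowest 2 of the 6 were short forms in both populations, and the highest was full-length in both. Forms of the same coding class also stood more than 1 apart, so the values did not sort by coding class alone.

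VIRMA, a large scaffold subunit of the writer complex, had 2 listed transcripts. VIRMA-201, of 1812 codons, was at −0.16 in shRBMS1 and −0.37 in shControl cells in the authors' deposited tables. VIRMA-202, of 1147 codons, was at −0.78 in shRBMS1 and 0.20 in shControl cells in the authors' deposited tables. The 2 forms therefore changed places between the populations.

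The cytoplasmic readers YTHDF1 and YTHDF2 lay within 0.40 of 0 in every listed transcript, whereas YTHDF3 transcripts were spread on both sides. YTHDF1 (chr20:63195429-63216131) was at 0.20 in shRBMS1 and −0.16 in shControl cells in the authors' deposited tables. YTHDF2 (chr1:28736624-28769775), the reader known for bringing the CCR4-NOT deadenylase to marked mRNAs, had 3 listed transcripts. YTHDF2-208 was at −0.14 in shRBMS1 and −0.35 in shControl cells, and YTHDF2-209 at −0.29 in shRBMS1 and −0.17 in shControl cells, in the authors' deposited tables. YTHDF2-201, at 0.16, was listed in the authors' deposited table for shRBMS1 cells alone.

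For YTHDF3, the close paralog of both, 4 transcripts were listed and 2 were in both tables. YTHDF3-209, of 534 codons, was at 2.16 in shRBMS1 and 0.54 in shControl cells in the authors' deposited tables. YTHDF3-205, of 585 codons, was at −1.62 in shRBMS1 and −0.62 in shControl cells in the authors' deposited tables. These 2 lay on opposite sides of 0 in both populations and farther apart in shRBMS1 cells. YTHDF3-212, at 0.31, was listed in the authors' deposited table for shRBMS1 cells alone, and YTHDF3-216, at −2.20, in that for shControl cells alone.

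YTHDC1 (chr4:68310387-68350090), the nuclear reader, held the highest values of all member transcripts. YTHDC1-202, which skips the exon shown above, was at 5.80 in shRBMS1 and 9.54 in shControl cells in the authors' deposited tables. The largest size of any deposited value was 9.9954, so the shControl value lies close to the end of the range. Whether YTHDC1-202 was close to absent at 0 h cannot be seen, because no levels are given. Of 21328 transcripts in the shControl table, 16 were higher, and of 20474 in the shRBMS1 table, 147 were. Only 22 of the 19334 shared transcripts were at 5 or above in both. YTHDC1-201, with the exon, was at −0.10 in shRBMS1 and −0.06 in shControl cells in the authors' deposited tables, near the middle of all transcripts. The gene mean of YTHDC1, 2.85 in shRBMS1 and 4.74 in shControl cells, was set by YTHDC1-202. YTHDC2 (chr5:113513694-113595284), with 1 transcript, was at −0.19 in shRBMS1 and −0.29 in shControl cells in the authors' deposited tables. The eraser ALKBH5 (chr17:18183828-18209954), also with 1 transcript, was at 0.03 in shRBMS1 and 0.20 in shControl cells in the authors' deposited tables.

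**Figure D1:**
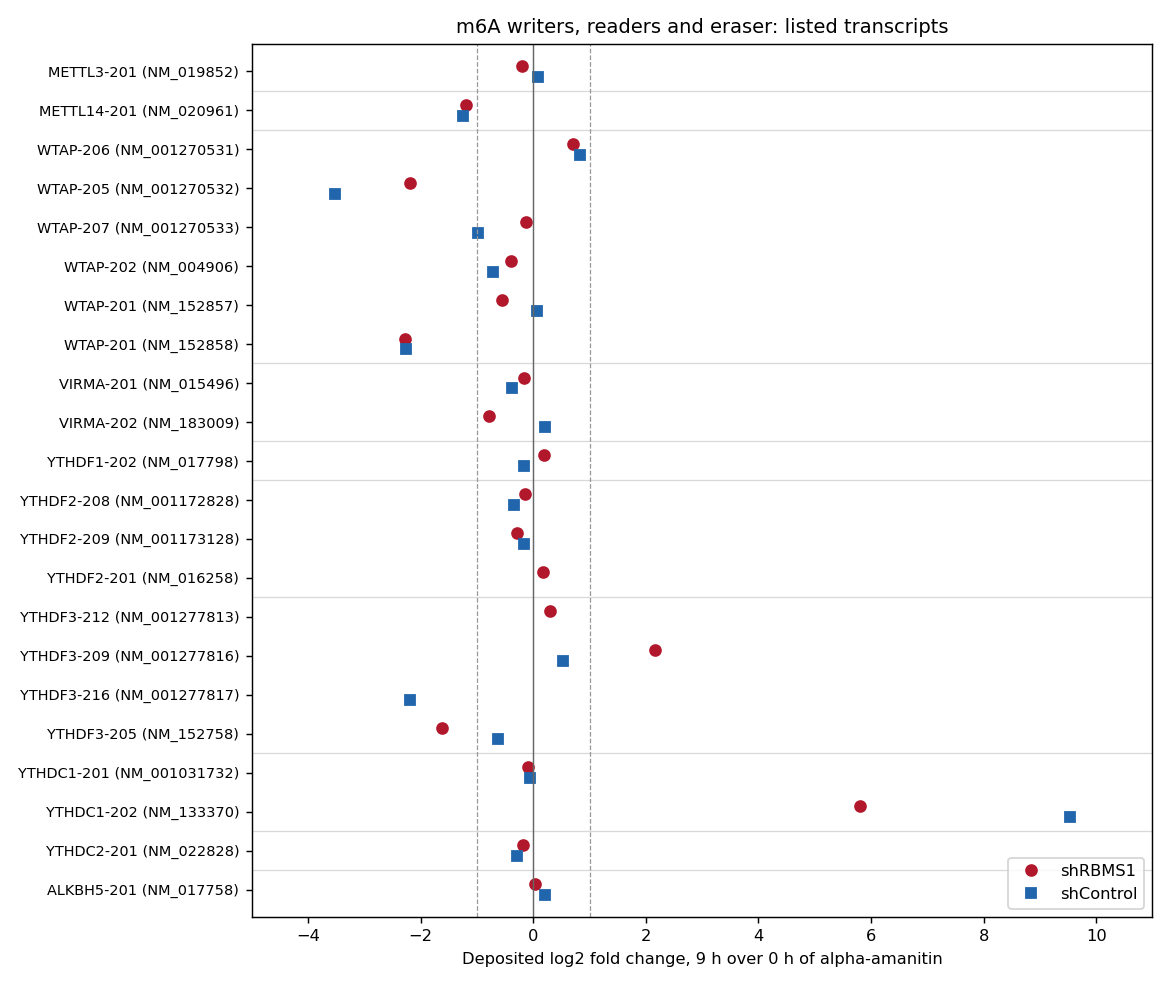
Deposited log2 fold change of 9 h over 0 h (horizontal axis) for each of the 22 listed transcripts (rows, by GENCODE name and RefSeq accession), with shRBMS1 as red circles above and shControl as blue squares below; dashed lines mark −1 and 1. In the authors' deposited tables YTHDC1-202 stands far to the right at 5.80 in shRBMS1 and 9.54 in shControl cells, METTL14 lies left of −1 in both, and WTAP and YTHDF3 transcripts lie on both sides of 0.

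As a set, the member transcripts had medians slightly below those of all transcripts in both populations, and their shares past a 2-fold size were near those of all transcripts. In shRBMS1 cells 4 of 21 were at −1 or below, against 12.9% of all 20474 transcripts, and 2 of 21 at 1 or above, against 8.65%. The median of the members was −0.16 and that of all transcripts −0.03 in shRBMS1 cells. In shControl cells 4 of 20 were at −1 or below, against 13.8% of all 21328 transcripts, and 1 of 20 at 1 or above, against 8.32%. The members' median was −0.23 and that of all transcripts −0.04 in shControl cells. The transcripts at −1 or below in both populations were METTL14-201, WTAP-205 and one of the WTAP-201 accessions, 3 of 19, while 5.72% of all shared transcripts were. These 3 come from 2 genes. Averaged over shared transcripts, 1 of 10 member genes in shRBMS1 cells lay at −1 or below, against 9.2% of all 12480 genes, and 1 at 1 or above, against 4.06%. In shControl cells 2 of 10 member genes lay at −1 or below, against 9.74%, and 1 at 1 or above, against 3.49%. The gene at 1 or above was YTHDC1 each time, and the genes at −1 or below were METTL14 in both and WTAP, at a mean of −1.10, in shControl cells, where its mean was −0.81 in shRBMS1 cells.

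The scale is relative, because total mRNA falls after a transcription block. Set against 127 ribosomal protein transcripts in the shRBMS1 table and 126 in the shControl table, mRNAs known to be long-lived, the median of all transcripts was −0.42 in shRBMS1 and −0.45 in shControl cells. The member medians then became −0.55 in shRBMS1 and −0.64 in shControl cells. Of all transcripts past a 2-fold size, 19.44% were on the higher side in shRBMS1 and 17.36% in shControl cells on this scale, against 40.07% in shRBMS1 and 37.63% in shControl cells as deposited. In shRBMS1 cells 5 of 21 members were then at −1 or below, against 22.8% of all transcripts, and 2 at 1 or above, against 5.49%. In shControl cells 7 of 20 were at −1 or below, against 24.8% of all transcripts, and 1 at 1 or above, against 5.2%. Of the member transcripts above 0 as deposited, 4 of 7 in shRBMS1 cells and 4 of 7 in shControl cells lie below 0 on this scale, YTHDF1 in shRBMS1, METTL3 in shControl and ALKBH5 in both among them.

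The series asked if depleting RBMS1 alters how stable transcripts are. For each of the 19 member transcripts in both tables, the shControl value was subtracted from the shRBMS1 value, and the median of that difference over all 19334 shared transcripts (−0.0182) was taken off; the result is called the centred difference. Most members differed little, with 12 of 19 within 0.5 of 0, or 63.16%, and 66.44% of all shared transcripts were that close. The members' median was 0.01, 10 of 19 lay above 0, and 15 of 19 had the same sign in both tables, or 78.95%, which 74.45% of all shared transcripts had. At 1 or above were 2 of 19, YTHDF3-209 at 1.64 and WTAP-205 at 1.35, against 8.98% of all shared transcripts. At −1 or below was 1 of 19, YTHDC1-202 at −3.72, against 8.65% of all.

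Just inside 1 in size were YTHDF3-205 at −0.98, VIRMA-202 at −0.96 and WTAP-207 at 0.87. The single-transcript members had centred differences of 0.37 for YTHDF1, 0.12 for YTHDC2, 0.06 for METTL14, −0.15 for ALKBH5 and −0.26 for METTL3, none of them near 1 in size. For genes averaged over shared transcripts, 1 of 10 members was at −1 or below, YTHDC1 at −1.87, against 4.16% of all 12480 genes, and 0 of 10 at 1 or above, against 4.89%. The other gene means were 0.37 for YTHDF1, 0.33 for YTHDF3, 0.31 for WTAP, 0.06 for YTHDF2 and −0.37 for VIRMA. The YTHDF3 mean of 0.33 joined transcripts at 1.64 and −0.98, so it described neither.

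**Figure D2:**
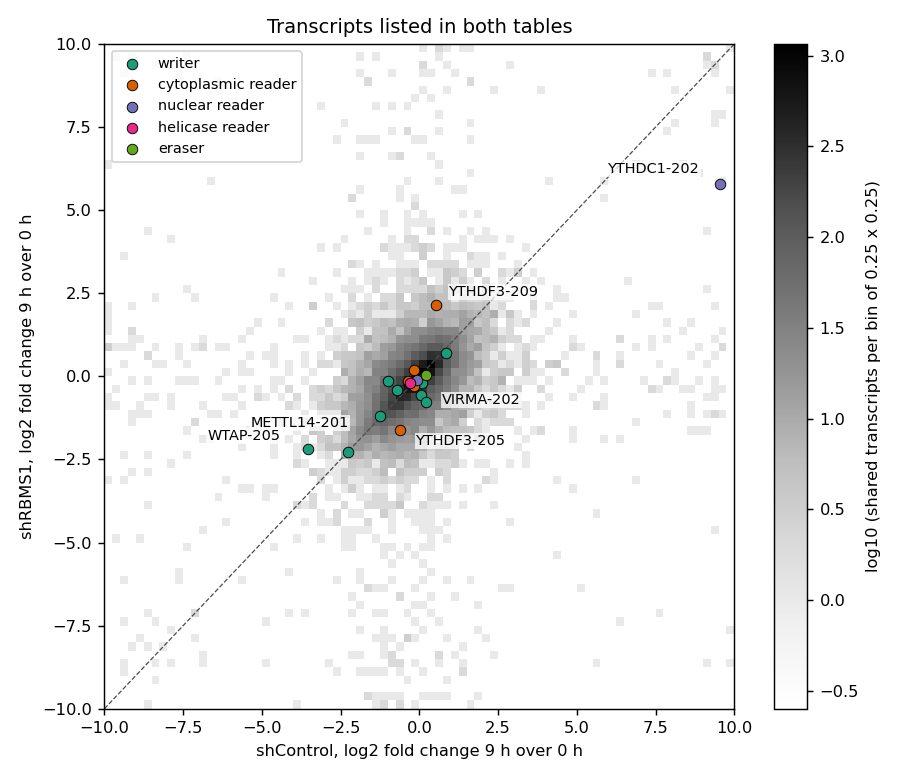
Log2 fold change of 9 h over 0 h in shControl (horizontal axis) and shRBMS1 cells (vertical axis) for the transcripts in both tables, as grey counts per bin of 0.25 by 0.25 on a log10 scale, with the 19 member transcripts as points coloured by role; the dashed line marks equal values. METTL14-201 lies on the line, while YTHDF3-209 lies above it and YTHDC1-202 far below it, with centred differences of 1.64 and −3.72.

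The member transcripts with a centred difference past 1 in size all came from genes with several listed isoforms. This was not particular to the members. Of all genes with 1 listed transcript, 1.88% were at −1 or below and 2.62% at 1 or above. Of all shared transcripts, 8.65% and 8.98% were. In both populations the isoforms of YTHDC1 and YTHDF3 lay farther apart than those of most genes with as many. WTAP isoforms did so in shControl cells and lay close to the median in shRBMS1 cells. The 2 shared YTHDC1 transcripts were 5.90 apart in shRBMS1 and 9.60 apart in shControl cells. Of 2879 genes with 2 shared transcripts, 82 were wider apart in shRBMS1 and 28 in shControl cells, and the median of these genes was 0.71 in shRBMS1 and 0.65 in shControl cells. YTHDF3 transcripts were 3.78 apart in shRBMS1 and 1.15 apart in shControl cells, with 160 of these genes wider in shRBMS1 and 880 in shControl cells. VIRMA transcripts were 0.62 apart in shRBMS1 and 0.57 in shControl cells, with 1591 genes wider in shRBMS1 and 1587 in shControl cells. YTHDF2 transcripts were 0.15 apart in shRBMS1 and 0.17 in shControl cells, with 2491 genes wider in shRBMS1 and 2396 in shControl cells. VIRMA and YTHDF2 thus lay below the medians within each population. WTAP spanned 2.98 in shRBMS1 and 4.37 in shControl cells, where the median of 42 genes with 6 shared transcripts was 2.94 in shRBMS1 and 2.44 in shControl cells, and 19 of these genes were wider in shRBMS1 and 10 in shControl cells. In the centred difference the median range was 0.76 for genes with 2 shared transcripts. YTHDC1 spanned 3.70, YTHDF3 2.63, VIRMA 1.19 and YTHDF2 0.32, with 257, 393, 1025 and 2123 genes wider. WTAP spanned 1.95, below the median of 3.04 for its 42 genes, with 26 wider.

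Isoforms of a gene share exons, and how the authors assigned reads from shared exons is not stated. Against the other listed transcripts of its gene, YTHDC1-202 had 0 exonic bases of its own and 1 junction of its own, the one printed above. WTAP-205 had 0 bases and 0 junctions of its own, and YTHDF3-209 had 0 bases and 1 junction. These are the 3 members past 1 in size of the centred difference. YTHDF2-208, with 0 bases and 1 junction of its own, had a centred difference of 0.22. At the other end, YTHDC1-201 had 2988 bases of its own, VIRMA-201 had 3062 and WTAP-202 had 1415, and their centred differences were −0.02, 0.23 and 0.34. The rest did not follow this order. VIRMA-202 had 458 bases of its own and was at −0.96. WTAP-201 had 220 that the other WTAP forms lacked. Its 2 accessions have the same annotated exons, so neither had bases of its own, and they were at −0.60 and 0.01. YTHDF2-209 had 138 bases of its own and was at −0.10, and WTAP-206 had 66 and was at −0.11. WTAP-207 had 5 and was at 0.87, and YTHDF3-205 had 1 and was at −0.98. How far the assignment of reads from shared exons shaped these values was not tested.

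**Figure D3:**
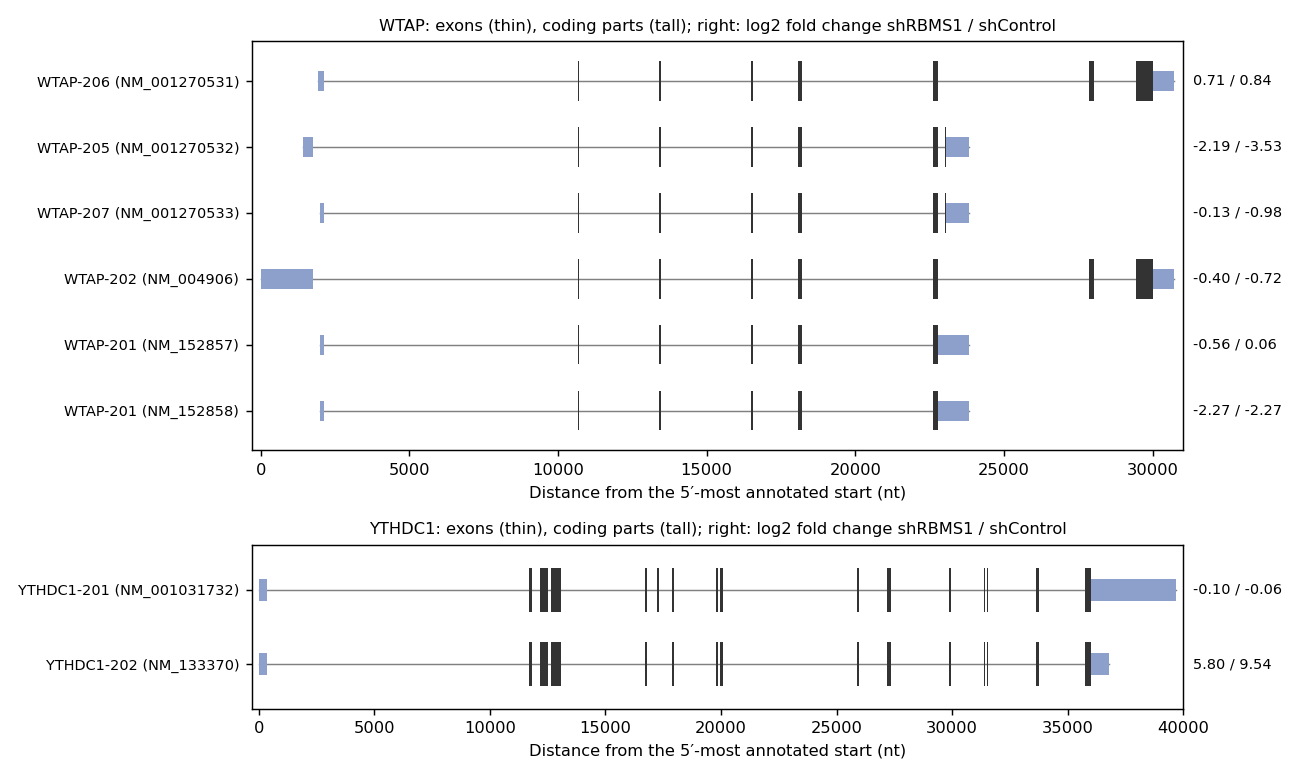
Exons (thin blue) and coding parts (tall dark) of the listed WTAP and YTHDC1 transcripts, by distance in nt from the start nearest the 5′ end, with the deposited log2 fold changes in shRBMS1 and shControl cells at the right. The WTAP forms of 170 and 151 codons end before the last 2 coding exons, and YTHDC1-202 lacks 1 coding exon and most of the 3′ UTR of YTHDC1-201.

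Several features of the member mRNAs were not part of their choice. In the transcript with the longest 3′ UTR of each gene, GGACT, counted on the mRNA strand along the whole transcript, was found in 10 of 10 member genes, and 90.87% of all 11499 genes with an annotated 3′ UTR had it. Its median density was 1.11 per kb in members and 0.932 per kb in all genes. METTL14-201 held 8 copies, VIRMA-201 held 10 and YTHDF1-202 held 1. ATATA, the letters reported for RBMS1 binding, counted in the 3′ UTR on the mRNA strand with overlapping copies counted separately, was found in 8 of 10 member genes and in 58.47% of all genes. The median density was 1.29 per kb in members and 0.778 per kb in all genes, and the median 3′ UTR length 1418 nt in members and 1117 nt in all genes. METTL14-201, with a 3′ UTR of 5131 nt, held 8 copies and had a centred difference of 0.06, and METTL3-201 and YTHDF1-202 held 0 and were at −0.26 and 0.37. YTHDC1-201 held 6 copies in a 3′ UTR of 3712 nt, and YTHDC1-202 held 0 in one of 778 nt.

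Of 31 further genes of the m6A pathway, 30 had a value in both tables. The median of their gene means was −0.05 in shRBMS1 and −0.20 in shControl cells, and that of all genes −0.06 in shRBMS1 and −0.07 in shControl cells. At −1 or below lay 0 of 30 in shRBMS1 cells, against 9.2% of all genes, and 3 of 30 in shControl cells, against 9.74%, a share near that of all genes. At 1 or above lay 0 of 30 in either population, against 4.06% of all genes in shRBMS1 and 3.49% in shControl cells. The 3 were CBLL1, an E3 ligase found in the writer complex, at a mean of −3.77, IGF2BP1, an m6A reader known for stabilising mRNAs, at −1.20, and CNOT1, the scaffold of the CCR4-NOT deadenylase, at −1.01 in the authors' deposited table for shControl cells. In shRBMS1 cells CBLL1 was at −0.78, IGF2BP1 at −0.28 and CNOT1 at −0.25 in the authors' deposited table. The list's median centred difference was 0.11, with 20 of 30 above 0. That of all genes was 0.0014, so all genes divided almost evenly about 0. Of 9 further writers, 8 were above 0, with a median of 0.16, and of 11 further readers, 7 were, with a median of 0.10. Of 9 cofactors or partners 4 were, with a median of −0.01. The 9 writers were RBM15, RBM15B, ZC3H13, CBLL1, METTL16, METTL5, TRMT112, ZCCHC4 and PCIF1, so they were not all writers of the mark inside mRNA. Among the 8 above 0, RBM15B and ZC3H13 were at only 0.02 each, and the CBLL1 mean was above 0 through 1 of its 3 transcripts. The eraser FTO was at 0.21.

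In the wider list 1 of 30 genes had a centred difference of 1 or more, against 4.89% of all genes, and 0 had −1 or less, against 4.16%. The gene was CBLL1 at 3.01, a mean set by 1 coding transcript at 0.97 in shRBMS1 and −9.92 in shControl cells in the authors' deposited tables. That shControl value also lies close to the end of the deposited range, 9.9954 in size. The other coding transcript of CBLL1 was at −0.22 in shRBMS1 and −0.15 in shControl cells, and a non-coding one at −3.09 in shRBMS1 and −1.23 in shControl cells, in the authors' deposited tables. PCIF1, the methyltransferase that marks the adenosine next to the cap, followed at 0.99, and PRRC2A, a reader, at 0.93. The lowest were SRSF10 at −0.82 and SRSF3 at −0.27, splicing factors known as partners of YTHDC1, and EIF3A, a subunit of initiation factor eIF3, at −0.22. The PRRC2A mean joined transcripts at 2.04 and −0.17, and SRSF10 ranged from −4.11 to 0.38. CNOT1, chosen after its values were seen, had 4 shared transcripts, and all 4 lay between 0.73 and 0.83. Isoforms of a gene share reads, so these 4 are not replicates. MAT2A, the S-adenosylmethionine synthetase whose mRNA is itself a known target of METTL16, was at −0.68 in shRBMS1 and −0.65 in shControl cells in the authors' deposited tables.

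**Figure D4:**
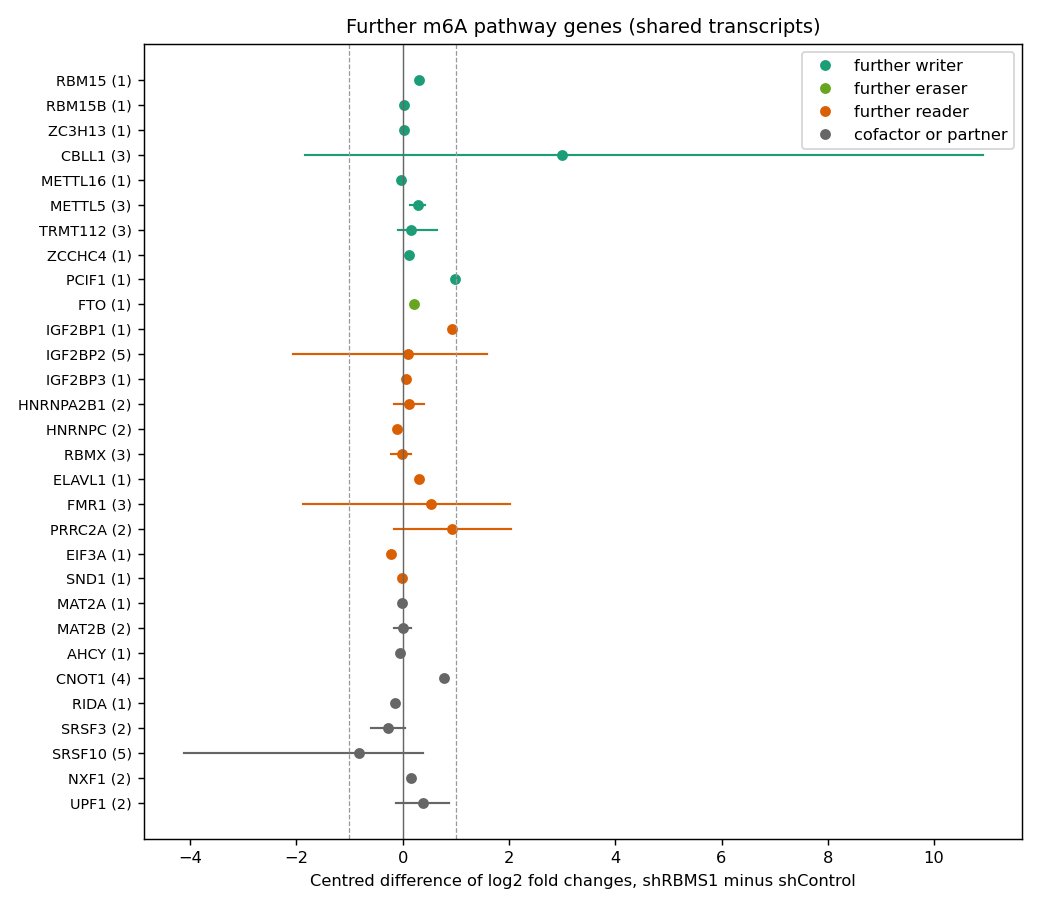
Centred difference, shRBMS1 minus shControl on the log2 scale (horizontal axis), for 30 further m6A pathway genes (rows, number of shared transcripts in brackets), as the gene mean (point) and the span of its transcripts (line), coloured by role; dashed lines mark −1 and 1. CBLL1 stands apart at 3.01 with the widest span, and the 4 CNOT1 transcripts, isoforms that are not replicates, lie together between 0.73 and 0.83.

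RBMS1 itself had centred differences of −0.43 and −0.996 for its 2 transcripts, and a ratio of 9 h to 0 h does not measure the knockdown. Of 7 epithelial markers 5 were in both tables, among them EPCAM. Of 5 fibroblast markers only ACTA2 was listed, of 4 immune markers CD68 and LYZ, and of the endothelial markers PECAM1 and VWF neither was.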

How the data were processed

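Total RNA of 8 libraries was sequenced. Per the submitters' processing notes, hg38 was the build and STAR 2.5, Cufflinks and Cuffdiff were tools used, with no role or order. The authors deposited 1 log2 fold change for each RefSeq transcript in each population, taken as log2 because Cuffdiff writes it; filters and normalisation are not stated. Accessions were paired with symbols by the RefSeq gene table (GRCh38.p14; 22132, all 22 members among them) or GENCODE release 29 (205), and 131 had none. Coordinates are GRCh38, the assembly of hg38. Differences, counts past 1 in size, medians and motif counts were computed with Python 3.11.15 and pandas 2.3.3, and the centring was tested on simulated data. With 1 value per transcript no test over libraries was run. Nothing in the labels says that libraries came from separate cultures. Members, lists and tests were chosen with earlier results of these data known. Every member transcript was named. Of the wider list, the rule set beforehand was to name the 3 largest and 3 smallest centred differences and any gene past 1 in size in both tables. IGF2BP1 and CNOT1 were named as well for lying at −1 or below in shControl cells. FTO, MAT2A and the remaining further writers were named outside this rule. Alternatives covered scaling, centring, transcripts entering, the size counted, gene summaries and extreme values.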

Additional observations from a re-analysis of the deposited data

How the results depend on the processing

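No paired analysis was possible because the tables hold no library columns; leaving out a replicate was not possible for the same reason. Medians moved by 0.1 or more only relative to ribosomal protein mRNAs, to −0.55 in shRBMS1 and −0.64 in shControl cells. That scale gave 7 control members at −1 or below, as did a size of 0.58, which gave 2 higher there. By gene median, 1 gene was lower and 1 higher in shRBMS1 cells, against 8.95% and 4.61% of all genes. In shControl cells 1 was lower, against 9.87%. By gene mean, 1 was lower and 1 higher in shRBMS1 cells, against 9.49% and 5.26%, and 2 lower in shControl cells, against 10.7%. Without YTHDC1-202, 1 member was higher in shRBMS1 cells, against 8.65% of all transcripts, and 0 in shControl cells, against 8.32%. Leaving out the outer 1% also gave 0 in shControl cells, against 7.9%. Genes with 1 listed transcript gave 1 lower and 0 higher in each population. Of all such genes, 8.45% were lower and 4.46% higher in shRBMS1 cells, and 9.93% lower and 3.93% higher in shControl cells. For the difference, members at −1 or below numbered 2 without centring, against 8.84% of all shared transcripts, YTHDF3-205 being the added one. Past a size of 0.58 in place of 1, 4 were lower, against 14.4%. There were 0 at −1 or below without the outer 1% (8.19% of all) and without YTHDC1-202 (8.65%). The count was also 0 with only each gene's least changing transcript (2.55%) and among genes with 1 listed transcript (1.88%). Members at 1 or above numbered 0 by gene mean (4.89% of all), gene median (4.35%) and least changing transcript (3.22%), and among genes with 1 listed transcript (2.62%). They numbered 1 by means over all listed transcripts (6.15%), the gene being YTHDF3. These gene-based counts are over 10 genes and those of 1 listed transcript over 5. For single member transcripts and genes, 97 recomputed differences stayed within 0.1 and 8 did not. Changes of centring, scale or transcripts entering shift each transcript by 1 constant, at most 0.0206, so none of those could move by 0.1. For genes with 1 listed transcript the gene summaries could hardly differ, and the mean and median of 2 transcripts are equal. The 97 therefore say little about how firm the values are. None past 1 in size changed sign. By the least changing transcript YTHDC1 was at −0.02 and WTAP at 0.01, and 3 gene differences under 1 in size took the other sign, YTHDF3 at −0.98, VIRMA at 0.23 and YTHDF2 at −0.10. Omitting YTHDC1-202 and keeping genes with 1 listed transcript were chosen after seeing the data. Depth is unknown, so which values rest on few reads cannot be seen.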
